A study of Mus musculus with 6 samples.

Results

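RNA sequencing compared unpolarized macrophages collected 24 h after 10 Gy of gamma radiation (RM0) with unpolarized macrophages that received no radiation (M0). Both were RAW264.7 cells, a mouse macrophage line transformed by Abelson leukemia virus that divides continuously in culture, although the sample labels also name bone marrow as the source. RNA from 5 wells was pooled into 1 library per condition, so the spread between wells was not measured, no test of RM0 against M0 was possible and each ratio compares a pair of libraries. Whether the M0 cells were kept in culture for the additional 24 h was not stated, so irradiation and time in culture cannot be told apart. The other 4 libraries of the series are used below only for orientation. M1 cells received 100 ng/mL LPS with 20 ng/mL IFN-γ for 24 h, M2 cells received 20 ng/mL IL-4 for 24 h, and RM1 and RM2 were the same states given 10 Gy and collected 24 h later. The counts summed to 18246280 in M0 and 18660435 in RM0, and to between 17894937 and 18870516 over the 6 libraries. Of 24062 genes in the tables, 11688 had 10 or more counts in M0 or RM0 and are described here, and 9577 of these had 100 or more and are called well counted.

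Each gene is given by its raw counts, followed by the log2 ratio of RM0 to M0 after TMM scaling over the 6 libraries with a prior count of 2. The 95% interval behind a ratio is the exact Clopper-Pearson interval of the share of reads, and it covers counting error only, and no ratio is given where both libraries had 3 counts or fewer. A gene is said to have risen or fallen when it was well counted, differed by 1.5-fold or more and had an interval that left out 0. A wider call of 2-fold with at least 10 counts is named where it is used. In bulk RNA, fewer cells of a type and less RNA per cell cannot be told apart.

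Resting macrophages sense and engulf particles, and LPS and IFN-γ switch them to a program of cytokines, chemokines and nitric oxide. Ionizing radiation breaks DNA, and the breaks activate the kinases ATM and ATR, which stabilize p53 and halt the cell cycle. Genes of S phase are driven largely by E2F factors, and genes of G2 and mitosis by B-MYB-MuvB with FOXM1 and by NF-Y, which act through CHR elements and CCAAT boxes in their promoters. The DREAM complex represses these genes when cells leave the cycle.

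Both libraries carried the RNA of macrophages. Csf1r, the receptor for the macrophage growth factor CSF1, had 13259 counts in M0 and 14190 in RM0, and Cd68, a lysosomal membrane protein of macrophages, had 14910 and 14990. Emr1, which encodes F4/80, had 1623 and 1861 counts, Itgam, which encodes CD11b, had 28276 and 31782, and Lyz2, which encodes lysozyme, had 469530 and 580239. Their log2 ratios lay between 0.03 for Cd68 and 0.32 for Lyz2, and none passed the call. Over 31 macrophage identity genes 26 had 10 or more counts, with a median of 0.11, and 1 of 25 well counted ones rose, where 0.72% of all well counted genes did. This was Siglec1, a sialic acid receptor of tissue macrophages, which went from 3193 to 5334 counts (0.76, 0.69 to 0.82). All 9 epithelial markers, Epcam and the keratins among them, had 0 counts in the 6 libraries. The 8 B cell markers summed to 7 counts in M0 and 4 in RM0, and the T and NK cell list to 244 and 233, of which Lck held 243 and 232 and Cd3e had 0 in both. The neutrophil list summed to 4589 and 6671 counts, nearly all from S100a8, a calcium-binding protein that activated macrophages also express, while Mpo had 0 in both libraries and Elane 0 and 1. Fibroblast markers summed to 133 and 176 counts, with Dcn at 113 and 145 and Col3a1 at 0 in both. Endothelial markers summed to 91 and 116, with Vwf at 74 and 83. The lists for mast cells and basophils (19 and 19 counts, all of them from Gata2) and for skeletal muscle (178 and 172 counts, mostly Tnni2 at 136 and 111) also held few counts.

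RM0 and M0 were close. Of the 9577 well counted genes 9388 lay within 1.5-fold, and the 5th and 95th percentiles of the log2 ratio were -0.34 and 0.27. The median over all 11688 genes was -0.00084. Among the well counted genes 69 rose, which is 0.72% of them, and 120 fell, which is 1.25%. Of the 120 genes 61 had fewer than 200 counts in both libraries, and with a minimum of 500 counts the balance turned, with 31 that rose and 21 that fell. Scaling by library totals alone gave 49 that rose and 136 that fell, since it lowers every ratio by about 0.05 and ends the call of the 20 genes that rose with a ratio of 0.63 or less. At 2-fold with 10 or more counts, 84 genes were higher (0.719%) and 96 lower (0.821%), or 76 and 114 with library totals, but 145 of those 180 had fewer than 100 counts in both libraries. The 1.5-fold call on well counted genes gave 7.1% higher and 5.75% lower in RM1 against M1, and 1.27% and 1.44% in RM2 against M2. M2 against M0, which shares the M0 library, gave 0.716% and 0.311%, so the IL-4 library without irradiation differed from M0 at 69 genes that were higher and 30 that were lower.

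**Figure D1:**
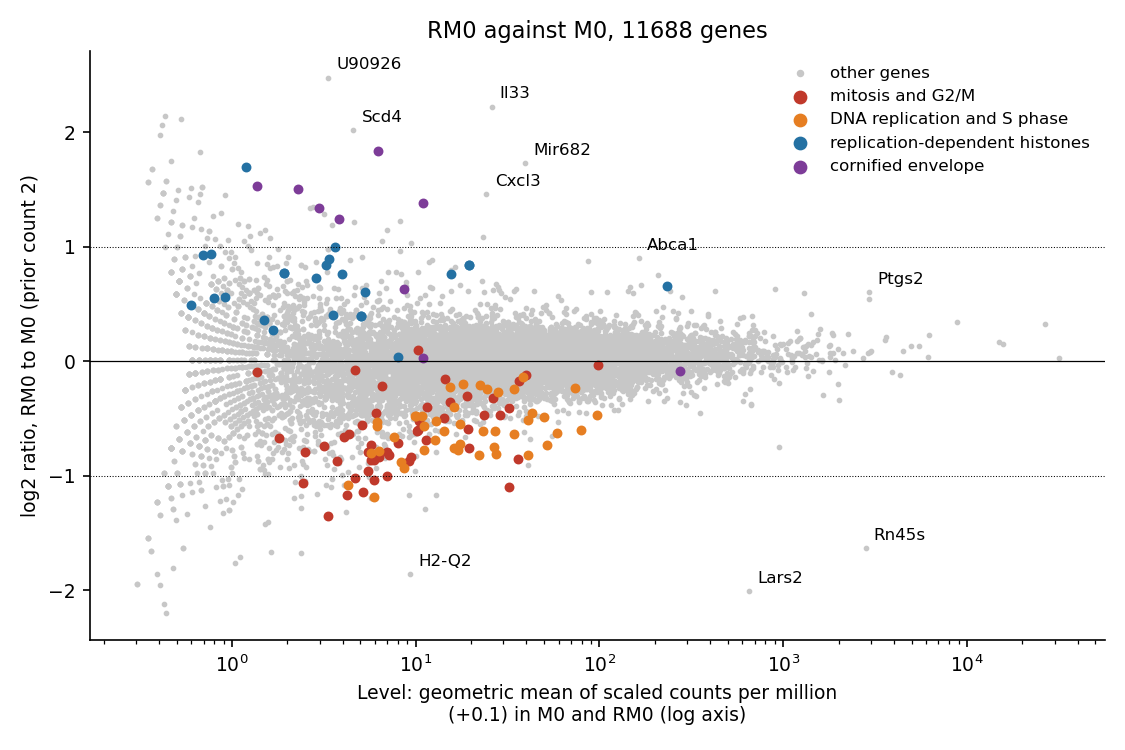
Log2 ratio of RM0 to M0 (vertical axis, prior count 2) against the level of each gene, the geometric mean of its scaled CPM plus 0.1 in both libraries (log axis), for 11688 genes with 10 or more counts. Mitosis genes (red) and S phase genes (orange) sit almost entirely below 0, histone genes (blue) all sit above 0, and U90926 and Il33 are the highest well counted genes at 2.48 and 2.22.

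The list with the lowest median was the machinery of mitosis. All 50 genes of the mitosis and G2/M list had 10 or more counts, 49 had a ratio below 0, and their median was -0.68 against -0.00084 for all genes. Of the 42 well counted members 25 fell and 0 rose, where 1.25% of well counted genes fell, and 8 of the 50 were past 2-fold lower. Several of the 25, Kif2c and Plk1 among them, reached 100 counts only in M0, and of the 38 members with a mean of 100 or more counts over M0 and RM0, a limit chosen after seeing the data, 21 fell and 0 rose, with a median of -0.60, where 1.05% of all such genes fell. By the same limit 22 of 43 S phase genes and 4 of 38 repair genes fell. Kif2c, a kinesin that depolymerizes microtubules at the centromere, had 104 counts in M0 and 39 in RM0 (-1.35, -1.97 to -0.85), with 113 in M2 and 46 in RM2 but only 3 in M1 and 6 in RM1. Plk1, the kinase that drives mitotic entry and spindle assembly, had 123 in M0 and 53 in RM0 (-1.17, -1.69 to -0.72). Ndc80, the kinetochore protein that grips microtubules, had 150 and 66 (-1.14, -1.61 to -0.74). These 3 genes were past 2-fold lower. Mki67, the proliferation antigen, had 935 and 431 counts (-1.10), Top2a, which untangles sister chromatids, 959 and 525 (-0.85), and Cdk1, the kinase of mitosis, 501 and 292 (-0.76). Members that stayed close to M0 were Arl6ip1, the most abundant of the list, with 1970 and 1906 counts (-0.03, -0.12 to 0.06), and Foxm1, the transcription factor of G2 genes, with 301 and 267 (-0.15). Cks2, a CDK subunit, was the 1 member above 0, with 195 and 206 counts.

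DNA replication genes were lower as a block. All 44 members of the S phase list were well counted and all 44 were below 0, with a median of -0.60, and 23 fell and 0 rose, where 1.25% of well counted genes fell. Prim1, the catalytic subunit of primase, had 175 counts in M0 and 75 in RM0 (-1.18, -1.61 to -0.81). Gins1, a subunit of the replicative helicase, had 122 and 56 (-1.08, -1.59 to -0.64), and Mcm10, which activates that helicase, had 236 and 121 (-0.93, -1.27 to -0.62). Every gene of the MCM2-7 helicase ring was below 0, from Mcm6 with 1067 and 597 counts (-0.82) to Mcm7 with 997 and 720 (-0.45). Tk1 and Rrm2, which make DNA precursors, had 222 and 118 counts (-0.88) and 719 and 404 (-0.81). Pcna, the sliding clamp and the most abundant of the list, had 2249 and 1605 counts (-0.47, -0.56 to -0.38), short of the 1.5-fold call. The smallest ratios were those of Pola2 (-0.13), Gins4 (-0.20) and Fen1 (-0.20).

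Promoters of these genes were read from RefSeq on GRCm38.p6, 250 bases before to 50 after the start, to show the elements named above. Motifs were searched as letters on both strands, CHR as TTTGAA, the CCAAT box as CCAAT, the E2F core as GCGGGAA and AP-1 as TGAGTCA. Of the 42 well counted mitosis genes 35 had a window, 22 of these windows (62.9%) held a CHR match and 19 (54.3%) held both CHR and CCAAT, where 17.8% and 6.92% of all 32544 windows did. Of the 44 S phase genes 36 had a window, and 15 (41.7%) held the E2F core, where 4.63% of all windows did. No mitosis window held the E2F core, and 3 of 36 S phase windows held CHR. These matches describe the letters of the windows and do not show that a factor binds. Below are Plk1 and Ndc80 for mitosis and Prim1 for S phase, 5′ to 3′ on the gene's strand, with motif matches in capitals. Plk1 is chr7:122159185-122159484 on the plus strand, with CCAAT beginning at -14 and CHR at 31 counted from the start. Ndc80 is chr17:71526808-71527107 on the minus strand, with CHR at 30 as its reverse complement. Prim1 is chr10:128014965-128015264 on the plus strand, where the E2F core (reverse complement, beginning at -15) runs into a CCAAT box at -9. Kif2c is not shown because its window lies 3852 bases from the start listed in the tables.
Plk1: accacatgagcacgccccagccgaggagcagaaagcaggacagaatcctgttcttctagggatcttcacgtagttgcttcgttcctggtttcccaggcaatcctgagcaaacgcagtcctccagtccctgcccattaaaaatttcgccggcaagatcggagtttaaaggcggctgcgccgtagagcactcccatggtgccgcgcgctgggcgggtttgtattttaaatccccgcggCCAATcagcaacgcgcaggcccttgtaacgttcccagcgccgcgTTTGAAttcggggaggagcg
Ndc80: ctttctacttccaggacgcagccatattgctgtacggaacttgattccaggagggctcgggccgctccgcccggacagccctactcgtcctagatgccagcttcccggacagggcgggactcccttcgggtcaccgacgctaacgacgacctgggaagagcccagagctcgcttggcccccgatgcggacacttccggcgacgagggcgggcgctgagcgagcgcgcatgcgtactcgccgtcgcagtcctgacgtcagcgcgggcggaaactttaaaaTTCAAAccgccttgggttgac
Prim1: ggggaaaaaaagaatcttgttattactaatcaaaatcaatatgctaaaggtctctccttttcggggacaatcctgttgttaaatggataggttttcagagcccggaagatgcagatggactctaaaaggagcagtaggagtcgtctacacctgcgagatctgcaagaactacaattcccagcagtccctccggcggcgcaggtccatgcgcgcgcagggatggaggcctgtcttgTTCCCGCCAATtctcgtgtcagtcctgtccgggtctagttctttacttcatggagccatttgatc

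Some DNA damage and repair genes fell as well. Of 47 such genes, all with 10 or more counts, 44 were below 0, with a median of -0.26. Of 39 well counted members 5 fell and 0 rose, where 1.25% of well counted genes fell. Clspn, which links ATR to CHK1 at stalled forks, had 271 and 118 counts (-1.17, -1.51 to -0.86), and Chek1, the checkpoint kinase itself, 101 and 55 (-0.84). Rad54l (149 and 83 counts) and Brca2 (165 and 103) also fell. Exo1, the nuclease that resects broken ends, had 56 and 16 counts, 2-fold lower by the wider call (-1.66, -2.69 to -0.97). Single genes closer to M0 were Prkdc with 514 and 506 counts, Lig4 with 169 and 168, Trp53bp1 with 770 and 750 and Atm with 855 and 779. Atr had 398 and 335 (-0.23, -0.45 to -0.02). Parp1, the most abundant member, had 2336 and 1964 counts (-0.23). Mgmt, which removes alkyl groups from guanine and belonged to no list, rose from 153 to 262 counts (0.79, 0.50 to 1.09).

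The mitosis, S phase and repair lists held 42, 44 and 39 of the 9577 well counted genes. Of the 120 genes that fell, 53 belonged to these lists, and 0 of the 69 that rose did. Several of the remaining ones act in the same processes and were in no list. Zwilch, a kinetochore checkpoint protein, had 129 and 50 counts (-1.31), 2810417H13Rik, now named Pclaf and a partner of PCNA, 345 and 138 (-1.29, -1.60 to -1.02), Pbk, a mitotic kinase, 169 and 72 (-1.19), and Stmn1, which destabilizes microtubules, 381 and 166 (-1.17, -1.45 to -0.91). Hmgb1 (146 and 77 counts, -0.89) and Hmgb2 (1050 and 646, -0.68), chromatin proteins whose loss is a mark of senescence, fell as well, while the senescence-associated list as a whole had 1 member that rose and 2 that fell, these Hmgb genes, among 16 well counted, where 0.72% of well counted genes rose and 1.25% fell. In the deposited gene ontology, 503 terms had 15 to 200 well counted genes. Those with the lowest medians were chromosome organization (-0.29, 17 genes, led by Rad54l and Pttg1), condensed chromosome (-0.20, Mki67 and Top2a), DNA replication (-0.20, 88 genes of which 21 fell, Prim1 and Gins1), the centromeric region (-0.18, Kif2c and Ndc80), chromosome segregation (-0.17, Kif2c and Dsn1) and ribosome biogenesis (-0.16, 49 genes of which 0 fell, Gar1 and Nop58).

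Among 15 well counted genes for G1 cyclins, CDKs and inhibitors 0 rose and 0 fell, where 0.72% of well counted genes rose and 1.25% fell, with a median of -0.01. Ccnd1, cyclin D1 and the most abundant, had 6152 and 5227 counts (-0.22, -0.27 to -0.16). Rb1 and Rbl2, pocket proteins that restrain E2F, had 326 and 407 counts (0.34) and 347 and 425 (0.31), whereas their relative Rbl1 had 506 and 387 (-0.37).

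Histone genes of the replication-dependent clusters went the other way from the replication genes. Of 68 such genes 24 had 10 or more counts, and 34 had 3 or fewer in both libraries. The 24 were all above 0, the lowest at 0.04, which lies within the shift of -0.05 that library totals give, and their median was 0.74, or 0.34 over the listed genes with no filter on counts. A gene could reach 10 counts through the library where it was high, so the filter bears on the signs of the 24. Of 8 well counted ones 5 rose and 0 fell, where 0.72% of well counted genes rose. With a mean of 100 or more counts over M0 and RM0, 5 of 6 rose and 0 fell, with a median of 0.71. Of all genes past that limit 0.666% rose. Hist2h2aa1 and Hist2h2aa2, Hist2h3c1 and Hist2h3c2, and Hist1h2bq and Hist1h2br are listed with identical counts, and with each pair taken once 21 genes had a median of 0.73 and 4 of 6 well counted ones rose. Hist1h1c, a linker histone that is also made outside S phase as a polyadenylated mRNA, had 3657 counts in M0 and 5709 in RM0 (0.66, 0.60 to 0.72). Hist2h2aa1 and Hist2h2aa2, which encode H2A and are 1 measurement, had 288 and 513 (0.85, 0.64 to 1.06), and Hist1h2bc, which encodes H2B, had 234 and 393 (0.76, 0.53 to 1.01). M1 held far more of the same RNAs without irradiation, with 15486 counts for Hist1h1c, 2970 for Hist2h2aa1 and 2599 for Hist1h2bc. How far the library preparation kept RNA without a poly(A) tail is not given clearly in the sources used here, and its part in these counts was not tested. Slbp, which binds the stem loop of histone mRNA in S phase, fell from 663 to 428 counts (-0.61), a call that ended with the GC trend removed.

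Ratios of p53 targets were small. Of 37 measured targets 28 were above 0, with a median of 0.16, and of 35 well counted ones 2 rose and 0 fell, where 0.72% of well counted genes rose. With library totals 1 of them, Phlda3, kept the call. Phlda3, a p53-induced inhibitor of AKT, had 233 counts in M0 and 402 in RM0 (0.80, 0.57 to 1.04), beside 56 and 192 in M1 and RM1 and 231 and 313 in M2 and RM2. Ccng1, cyclin G1, had 2437 and 3647 counts (0.60, 0.52 to 0.67) and was higher after irradiation in each of the 3 states. Cdkn1a, which encodes the CDK inhibitor p21 and is the most abundant target, had 11704 and 15258 (0.40, 0.37 to 0.43), Mdm2, the p53 ubiquitin ligase, 3206 and 3846 (0.28), and Bax, which permeabilizes mitochondria, 3523 and 3863 (0.15), all below the call. Psrc1 (224 and 329 counts, 0.57) and Fas, the death receptor (132 and 179, 0.45), also stayed under 1.5-fold. Ddb2, a damage recognition factor, had 101 and 71 counts (-0.48, -0.95 to -0.04). Apoptosis regulators had 0 genes called in either direction among 20 well counted, with Mcl1 at 10730 and 11907 counts (0.17). Of all well counted genes 0.72% rose and 1.25% fell, so 0 calls among 20 is no result about that list.

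**Figure D2:**
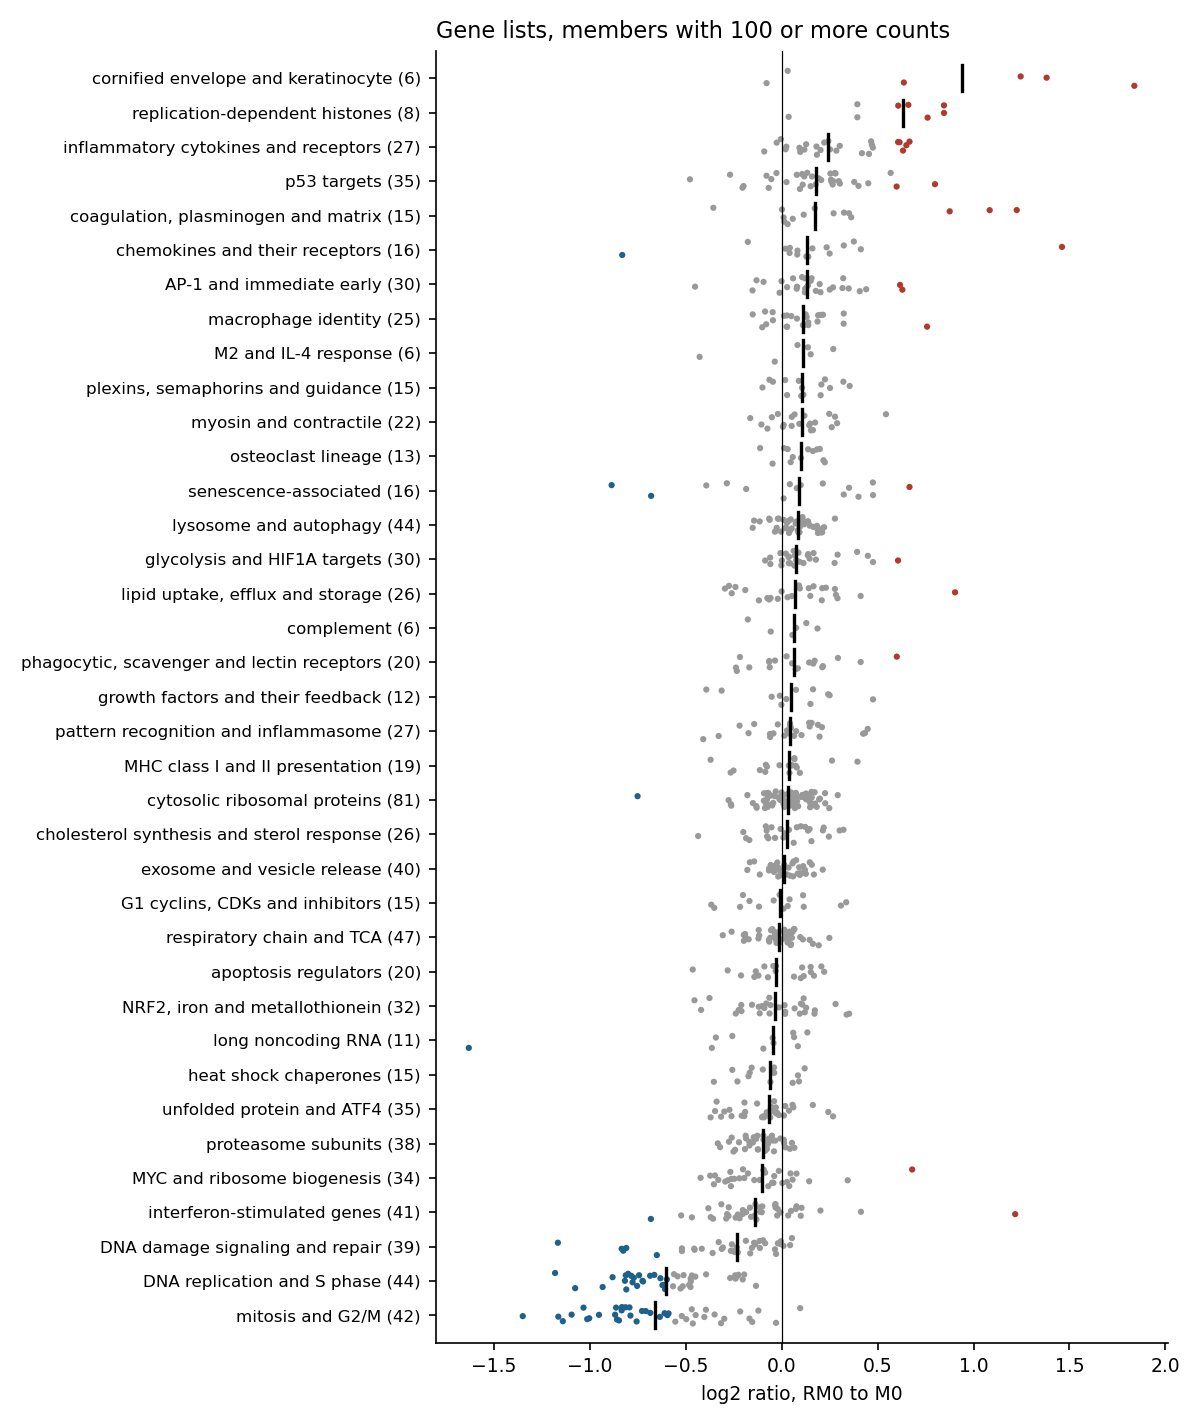
Log2 ratio of RM0 to M0 (horizontal axis) for the members with 100 or more counts of the gene lists described here with at least 5 such members (number in brackets). Points are genes, red where they rose and blue where they fell by the 1.5-fold call, and the black bar is the median. Mitosis, S phase and repair lie at the bottom, with medians over these members of -0.66, -0.60 and -0.23, and cornified envelope and histone genes lie at the top with 0.94 and 0.63. Over members with a mean of 100 or more counts in M0 and RM0, the cornified envelope and histone medians were 0.64 and 0.71.

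Several of the largest gains were those of genes far more abundant in M1 cells. U90926 (NR_033483, chromosome 5 of mm10, 92209895 to 92215408), a transcript without an annotated protein, had 26 counts in M0 and 153 in RM0, a 5.58-fold difference (2.48, 1.97 to 3.23), while M1 had 2486, M2 had 25 and RM2 had 35. Il33 (NM_133775, chromosome 19, 29925114 to 29960715), an alarmin cytokine of the IL-1 family, had 235 and 1093, a 4.67-fold difference (2.22, 2.03 to 2.44), against 26557 in M1, 163 in M2 and 373 in RM2. Cxcl3 (NM_203320, chromosome 5, 90786101 to 90788093), which attracts neutrophils, had 288 and 787, a 2.75-fold difference (1.46, 1.27 to 1.67), with 2366 in M1 and 12848 in RM1. Slfn1, a schlafen family member induced in activated leukocytes, had 58 and 136 (1.22, 0.79 to 1.72) against 3333 in M1, but 31 and 20 in M2 and RM2. In each of these genes RM0 lay between M0 and M1.

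Small proline-rich proteins of the Sprr2 cluster, which cross-link into the cornified envelope of skin, rose as well. Sprr2f (NM_011472, chromosome 3, 92365187 to 92366442) rose from 63 counts to 228 (1.84, 1.46 to 2.30), Sprr2d (NM_011470, chromosome 3, 92339140 to 92340873) rose from 132 to 343 (1.38, 1.10 to 1.70), and Sprr2g (NR_003548, chromosome 3, 92373915 to 92375229) rose from 47 to 113 (1.25, 0.78 to 1.81). M1 held 2120, 2429 and 820 counts of the 3 genes, and M2 held 54, 95 and 66. Sprr2h (35 and 91), Sprr2e (25 and 74) and Sprr2i (14 and 44) were past 2-fold as well, so 6 of the 9 measured cornified envelope genes were higher by that call, where 0.719% of genes were. These copies are close in sequence and reads could be split among them, so they are not 6 independent measurements. Sprr2f and Sprr2g reached 100 counts only in RM0. Of the 5 listed genes with a mean of 100 or more counts over M0 and RM0, 3 rose and 0 fell, with a median of 0.64. Of all genes past that limit 0.666% rose. Tgm1, the transglutaminase that cross-links the envelope, rose from 136 to 210 counts (0.64, 0.33 to 0.97), and Krt23, a keratin, from 129 to 264 (1.04, 0.74 to 1.37). Cstb, the most abundant of the list and a general protease inhibitor, had 5563 and 5201. The epithelial markers were at 0 in both libraries, and 24 of the 35 listed envelope genes had 3 counts or fewer in both.

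The promoters of Sprr2f and Sprr2d each held the AP-1 letters at nearly the same place, at -197 and -193, and 5.19% of all windows held them. Of the 6 well counted genes of the list 4 had a window and 3 of these held the match. Since the Sprr2 genes are close copies, their matches are not independent of each other. Sprr2f is chr3:92364937-92365236 and Sprr2d chr3:92338890-92339189, both on the plus strand, with AP-1 and CCAAT matches in capitals.
Sprr2f: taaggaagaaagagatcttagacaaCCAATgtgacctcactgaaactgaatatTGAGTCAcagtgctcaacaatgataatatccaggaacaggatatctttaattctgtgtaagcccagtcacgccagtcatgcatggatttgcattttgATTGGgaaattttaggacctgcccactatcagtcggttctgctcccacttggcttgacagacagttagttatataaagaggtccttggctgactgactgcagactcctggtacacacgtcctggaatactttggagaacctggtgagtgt
Sprr2d: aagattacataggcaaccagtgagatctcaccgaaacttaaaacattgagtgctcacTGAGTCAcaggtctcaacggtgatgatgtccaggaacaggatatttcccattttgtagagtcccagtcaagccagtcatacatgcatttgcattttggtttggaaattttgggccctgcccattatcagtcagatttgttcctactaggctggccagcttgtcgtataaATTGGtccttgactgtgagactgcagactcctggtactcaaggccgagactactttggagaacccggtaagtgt

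Some inflammatory mediators rose by smaller factors. Of 27 well counted genes for inflammatory cytokines and receptors 24 were above 0 and 5 rose, with 0 that fell, where 0.72% of well counted genes rose and 1.25% fell, and the median over 33 measured genes was 0.20. With library totals 2 of the 5, Il1b and Lif, kept the call. Il1b, which encodes IL-1β, had 2638 counts in M0 and 4136 in RM0 (0.67, 0.60 to 0.74), Lif, an IL-6 family cytokine, 2316 and 3590 (0.65, 0.57 to 0.73), and Nos2, the inducible nitric oxide synthase, 14393 and 22038 (0.63, 0.60 to 0.66). Ptgs2, the cyclooxygenase of prostaglandin synthesis and the most abundant member, had 47271 and 71098 (0.61, 0.59 to 0.62), and Tnfrsf1b, a TNF receptor, passed the call at 0.61. In RM2 against M2, Il1b, Lif and Ptgs2 were higher as well (0.64, 0.90 and 0.97), and in RM1 against M1 they stood at 1.06, 1.07 and 1.25 while Nos2 was lower (-0.56). Il6 had 97 and 134 counts (0.47). S100a8 (4580 and 6667, 0.56) stayed just under the call. Saa3, an acute phase protein, rose from 136 to 218 (0.69, 0.38 to 1.02). Tnfrsf9 (451 and 686, 0.62), the costimulatory receptor 4-1BB, and Il11 (545 and 825, 0.61) rose as well, calls that ended with library totals. Among 16 well counted chemokines and receptors, where 0.72% of all well counted genes rose and 1.25% fell, 1 rose, Cxcl3, and 1 fell, Cxcl10, an interferon-induced attractant of T cells, from 117 to 64 counts (-0.83, -1.32 to -0.40). Cxcl10 reached 100 counts only in M0. Of the 15 with a mean of 100 or more counts over M0 and RM0, 1 rose and 0 fell. Of all genes past that limit 0.666% rose and 1.05% fell. Abundant chemokines differed little, with Ccl3 at 56982 and 59530 (0.08) and Cxcl2 at 35257 and 35858 (0.04).

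Of 46 measured interferon-stimulated genes 37 were below 0, with a median of -0.16, and of 41 well counted ones 1 rose, Slfn1, and 1 fell, Ifit1, an antiviral RNA-binding protein, from 284 to 174 counts (-0.68, -0.97 to -0.41). Of all well counted genes 0.72% rose and 1.25% fell, so 1 call each way is no result about the list. Slfn1 reached 100 counts only in RM0. Of the 39 listed genes with a mean of 100 or more counts over M0 and RM0, 0 rose and 1 fell. Of all genes past that limit 0.666% rose and 1.05% fell. Mx2, an antiviral GTPase, had 266 and 182 (-0.52, -0.81 to -0.25) and Ifit2 had 260 and 185 (-0.47, -0.75 to -0.20), neither past 1.5-fold. Irf7, the factor that amplifies interferon responses, had 5965 and 6777 (0.20), and Ifitm3, the most abundant, 11550 and 12220 (0.10). MHC presentation genes had 0 calls among 19 well counted, with Cd74, the invariant chain, at 21607 and 22133 counts (0.05) and the costimulatory ligand Cd80 at 1451 and 1885 (0.39).

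To describe how far RM0 had moved along the M1 axis, genes were taken that differed 8-fold or more between M1 and M2 with 100 or more counts in the higher one, a choice that uses neither M0 nor RM0. Of the 96 genes higher in M1, 85 were measured, with a median of 0.21, and 14 of them were past 2-fold higher and 2 lower, where 0.719% and 0.821% of all genes were. Since a gene could reach the minimum count through the library where it was high, calls are given for genes with a mean of 100 or more counts over M0 and RM0. Of all genes past that limit 0.666% rose and 1.05% fell. Of 40 such genes higher in M1, 14 rose and 0 fell, with a median of 0.20. The 11 that belonged to the interferon-stimulated or MHC lists had a median of -0.03 with 0 that rose, and the other 29 had a median of 0.56 with 14 that rose, or 28 with 0.52 and 13 when Hist2h2aa1 and Hist2h2aa2 are taken once. Irf1, a direct IFN-γ target, had 8628 counts in M1 but 419 in M0 and 404 in RM0, and Ccl5, a T cell attractant, had 9987 in M1 but 718 and 719. Acpp, an acid phosphatase, rose from 88 to 182 counts (1.05, 0.69 to 1.45) with 1111 in M1. The 45 genes lower in M1 were all measured, with a median of -0.37, and 8 were past 2-fold lower and 0 higher. Of the 33 with a mean of 100 or more counts 11 fell and 0 rose, with a median of -0.27. The 6 of them in the mitosis, S phase and repair lists had a median of -0.81 with 5 that fell, and the other 27 had -0.21 with 6 that fell.

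**Figure D3:**
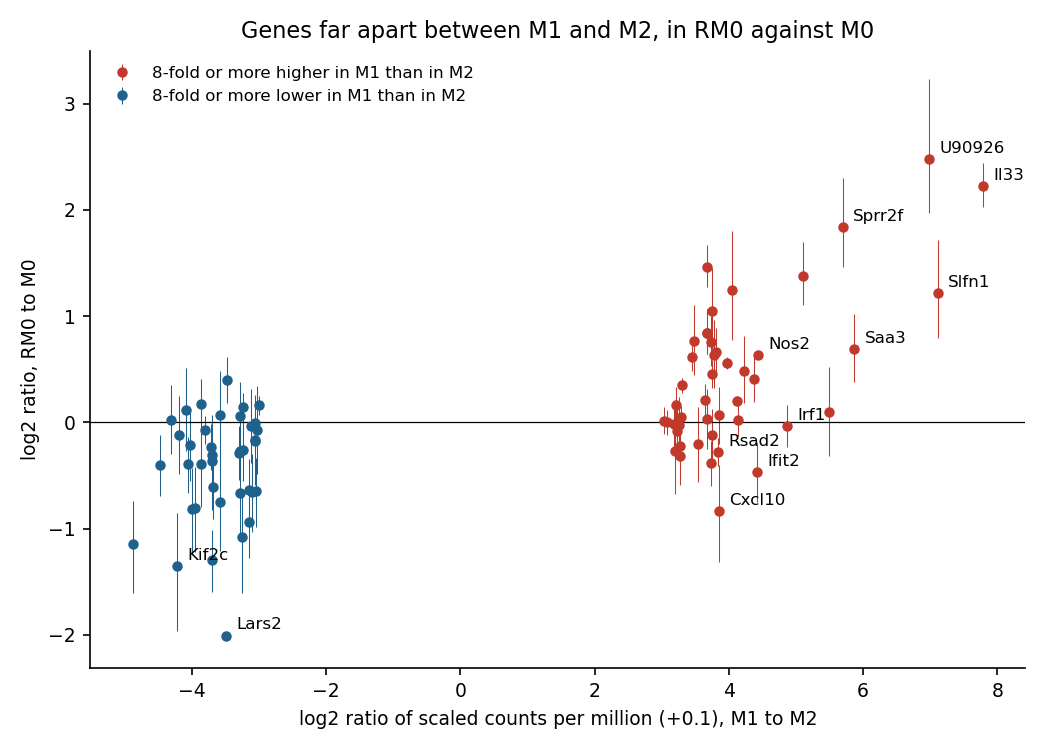
Log2 ratio of RM0 to M0 (vertical axis, bars are 95% counting intervals) against the log2 ratio of M1 to M2 (horizontal axis, scaled CPM plus 0.1) for genes 8-fold or more apart between M1 and M2 and with 100 or more counts in M0 or RM0. Il33, U90926 and Sprr2f lie far above 0, Irf1 lies at -0.03, and Cxcl10 and Ifit2 lie below 0 at -0.83 and -0.47.

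Of 15 well counted genes for coagulation, plasminogen and matrix 3 rose and 0 fell, where 0.72% of well counted genes rose and 1.25% fell. Thbs1, thrombospondin 1, a matrix protein that activates TGF-β, had 104 counts in M0 and 243 in RM0 (1.23, 0.90 to 1.59), Thbd, thrombomodulin, which turns thrombin into an anticoagulant, had 315 and 662 (1.08, 0.89 to 1.29), and Serpinb2, an inhibitor of plasminogen activators, had 1268 and 2300 (0.88, 0.78 to 0.98). A noncoding gene on the other strand overlaps exons of Thbs1, and the strand setting of the counting is not given in the sources used here. Plau, the plasminogen activator urokinase, had 1739 and 1341 counts (-0.36). Outside that list, Pgf, placental growth factor, rose from 171 to 311 (0.87, 0.61 to 1.16) and Cd93, a receptor of myeloid and endothelial cells, from 176 to 324 (0.89, 0.63 to 1.17), whereas Vegfa had 3707 and 5093 (0.48) and stayed under the call.

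Of 26 well counted genes for lipid uptake, efflux and storage 1 rose, Abca1, and 0 fell. Of all well counted genes 0.72% rose and 1.25% fell. The median over the 29 measured genes of the list was 0.05. Abca1 (NM_013454, chromosome 4, 53030789 to 53159895), the pump that exports cholesterol to apolipoprotein A-I, rose from 2376 to 4392 counts (0.90, 0.83 to 0.98), 883 and 3810 in M1 and RM1, and 2096 and 4703 in M2 and RM2. Lrp1, a scavenger and lipoprotein receptor, rose from 20855 to 31224 (0.60, 0.57 to 0.63), a call that ended with library totals and with the GC trend removed, and Cd36, which takes up oxidized lipoprotein, had 6717 and 8825 (0.41). Plin2, the coat protein of lipid droplets, had 36307 and 29206 counts (-0.30, -0.32 to -0.27). The cholesterol synthesis list had 0 calls among 26 well counted genes, with a median of 0.03, at shares of 0.72% and 1.25% over all well counted genes. Scd4 and Scd3, minor stearoyl-CoA desaturases, had 43 and 179 counts (2.02, 1.59 to 2.59) and 44 and 102 (1.19, 0.71 to 1.77) and were past 2-fold, but M2 and RM2 had 116 and 29 for Scd4, and 60 and 32 for Scd3. The main macrophage isoforms Scd1 and Scd2 had 760 and 691 (-0.12) and 6818 and 8191 (0.28).

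Of 30 well counted AP-1 and immediate early genes 2 rose and 0 fell, where 0.72% of well counted genes rose and 1.25% fell, and both calls ended with library totals and with the GC trend removed. Nr4a1, an immediate early nuclear receptor, had 559 and 855 counts (0.63, 0.48 to 0.79) and Dusp5, a phosphatase of ERK, 2294 and 3476 (0.62, 0.54 to 0.69). Egr1 had 1570 and 1133 (-0.45) and Ier3, the most abundant of that list, 13067 and 15353 (0.25). Mxd1, which competes with MYC for its partner MAX, rose from 427 to 677 (0.68, 0.51 to 0.86), while Myc itself had 951 and 977 (0.06, -0.07 to 0.19), and 25 of 34 genes of the MYC and ribosome biogenesis list were below 0 with a median of -0.11. Nop58 and Gnl3, nucleolar proteins, had 2913 and 2145 (-0.42) and 1270 and 968 (-0.37). Pfkfb3, which makes the activator of phosphofructokinase, rose from 1773 to 2667 (0.61, 0.52 to 0.69), the only call among 30 well counted glycolysis and HIF1A genes and one that ended with library totals. The gene ontology terms with the highest medians were peptidase inhibitor activity (0.17, Serpinb2 and Slpi), voltage-gated ion channel activity (0.16, Cacnb3 and Cybb), positive regulation of MAPKKK cascade (0.16, Il11 and Il6), response to cytokine stimulus (0.15, Ptgs2 and Synj1), steroid hormone receptor activity (0.15, Nr4a1 and Rarg) and axon guidance (0.14, Klf7 and Sema5a), each over 15 to 18 genes of which at most 1 rose.

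**Figure D4:**
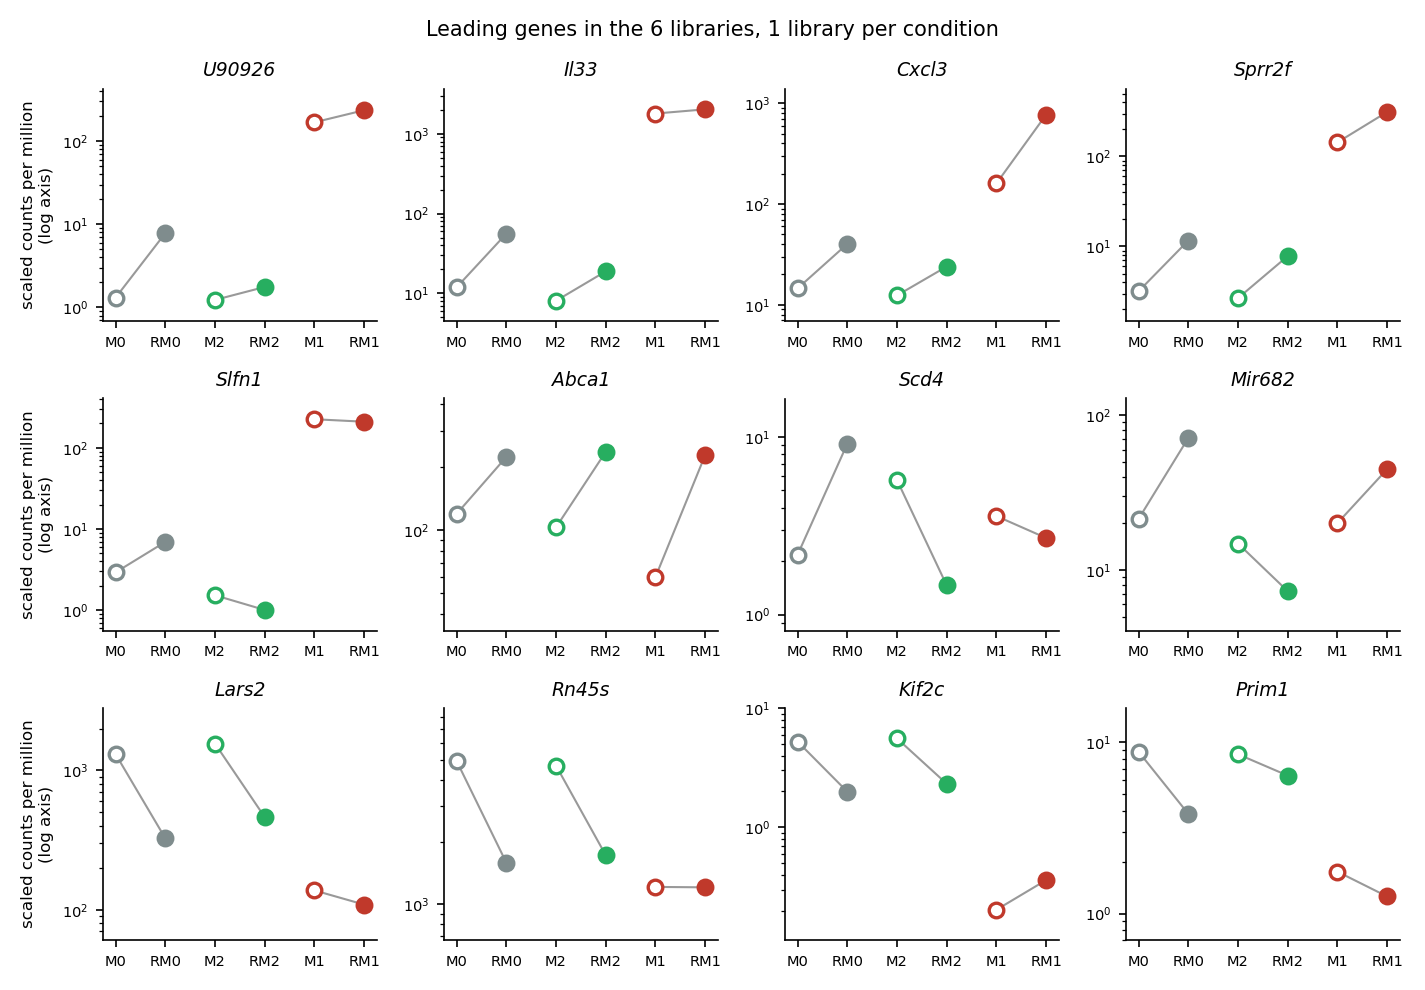
Scaled CPM (log axis, each panel with its own range) of 12 genes in the 6 libraries, open circles without and filled circles with irradiation, joined within each state. U90926, Il33, Cxcl3, Sprr2f and Slfn1 are highest in M1 and RM1, Scd4 and Mir682 move in opposite directions in the unpolarized and the IL-4 pair, and Lars2 and Rn45s are higher in M0 and M2 than in the other 4 libraries.

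The lowest ratios of all well counted genes belonged to Lars2, H2-Q2 and Rn45s. Lars2 (NM_153168, chromosome 9, 123366940 to 123462664), the mitochondrial leucyl-tRNA synthetase, had 26008 counts in M0 and 6397 in RM0, a 4.02-fold difference (-2.01, -2.05 to -1.97), with 31635 in M2, 9193 in RM2, 2038 in M1 and 1818 in RM1. Rn45s (NR_046233, chromosome 17, 39842997 to 39848829), the precursor of ribosomal RNA, had 97949 and 31217 (-1.63, -1.65 to -1.61), which is 0.537% of all counts in M0 and 0.167% in RM0. Its share was 0.531% in M2, 0.189% in RM2, 0.0972% in M1 and 0.107% in RM1. Both genes thus were high in M0 and M2 and low in the other 4 libraries. Rn45s measures residual ribosomal RNA in a library as well as its synthesis, and its locus overlaps several noncoding genes. Whether the reads counted for Lars2 came from mRNA of the synthetase was not tested. The part of the library preparation in the Lars2 and Rn45s values was not tested either. H2-Q2, a class I gene with close copies, had 351 and 94 counts (-1.86, -2.23 to -1.55) beside 106 in M2, 89 in RM2, 327 in M1 and 239 in RM1. The neighboring H2-Q1 had 217 and 208 counts and H2-Q4 1731 and 1421. Mir682 (424 and 1395 counts, 1.73) lies within a processed pseudogene, Gm4149, on the same strand, so its counts are reads over that copy and not a measure of the mature miRNA.

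Other lists had medians near 0 and few or no calls, which is also what the shares of 0.72% and 1.25% over all well counted genes give for lists of this size. Over 40 measured genes of exosome and vesicle release 0 rose and 0 fell, with a median of 0.01 and values between -0.18 and 0.21. There were also 0 calls among 47 genes of the respiratory chain and TCA cycle (median -0.01) and 38 proteasome subunits (-0.10). The 35 unfolded protein and ATF4 genes (-0.06) and 44 well counted lysosome and autophagy genes (0.08) had 0 calls as well. Cytosolic ribosomal proteins had a median of 0.03 over 82 genes, and 1 of them fell, Rps27a, which encodes a fusion of ubiquitin and a ribosomal protein, from 24486 to 14362 counts (-0.75, -0.78 to -0.72), with 23260 in M2 and 23057 in RM2. Among the chaperones Hspa5 (45017 and 35136, -0.34) and Hsp90b1 (15130 and 11556, -0.37) of the endoplasmic reticulum had ratios below 0 without passing the call. Heat shock chaperones had a median of -0.08, NRF2 and iron genes -0.06, pattern recognition and inflammasome genes 0.05, phagocytic and scavenger receptors 0.00056, plexins and semaphorins 0.10, myosin and contractile genes 0.12, osteoclast lineage genes 0.08, complement genes 0.06, growth factors 0.01, M2 and IL-4 response genes 0.14 and long noncoding RNAs -0.09.

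The exosome candidates of the study were mostly too rare to compare. Cd34, Myo5b, Cav1, Exph5, Myh10, Egfr and Igf1r had 0 to 2 counts in both M0 and RM0, Ap3b2 had 3 and 4 and Sh3gl3 had 4 and 0. Sec31b had 10 and 1 counts, a log2 ratio of -1.94 with an interval from -8.74 to -0.49. Trim28, Hif1a and Smad2 were well counted, with 2957 and 2813 counts (-0.05), 2766 and 2815 (0.04) and 880 and 838 (-0.05).

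Below 100 counts the ratios are imprecise. The largest such gains were Ccdc38 (2 and 16 counts, 2.15, 0.93 to 6.18), Doc2a (3 and 20, 2.12, 1.00 to 5.15), Adra1a (2 and 15, 2.06, 0.82 to 6.10), Mir1198 (2 and 14, 1.98, 0.70 to 6.01) and Olfml2b (5 and 23, 1.83, 0.79 to 3.97). Of these only Olfml2b was also past 2-fold higher in RM1 (55 and 174) and RM2 (6 and 19). The largest losses were Gadd45g, a stress gene (17 and 2, -2.20, -6.23 to -0.995), Mir6236 (16 and 2, -2.12, -6.15 to -0.89), Ispd (14 and 2, -1.95, -5.97 to -0.67), Sec31b and D630024D03Rik (10 and 1, -1.94, -8.74 to -0.49). Exons of Ccdc38, Doc2a and Ispd overlap protein-coding genes on the other strand, and whether reads of those genes were counted was not tested.

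The other states give the same lists side by side, from libraries that RM0 and M0 do not share. Over members with 10 or more counts in the pair compared, the mitosis list had a median of -0.68 in RM0, -0.24 in RM1 and -0.60 in RM2, and the S phase list -0.60, -0.40 and -0.51. Repair genes had medians of -0.26, -0.0033 and -0.21, and histone genes 0.74, -0.31 and 0.64. Inflammatory cytokines and receptors stood at 0.20, 0.11 and 0.12, p53 targets at 0.16, 0.23 and 0.10, and interferon-stimulated genes at -0.16, -0.48 and -0.29. Of the 120 genes that fell in RM0, 118 were also below 0 in RM2 and 77 in RM1, and of the 69 that rose, 60 were above 0 in RM2 and 51 in RM1. Of all well counted genes 49.8% were below 0 in RM2 and 52% in RM1, and 50.2% and 48% were above 0. Whether the states differ could not be tested with 1 library each. Between the fifth of lowest and the fifth of highest GC, the median ratio went from 0.23 to -0.22 in RM1. It went from 0.13 to -0.12 in RM2, and the other way, from -0.06 to 0.06, in RM0. Median GC was 46.3% for mitosis genes, 53.3% for histone genes and 49.7% for all measured genes. The part of these GC trends in the differences between states was not tested.

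**Figure D5:**
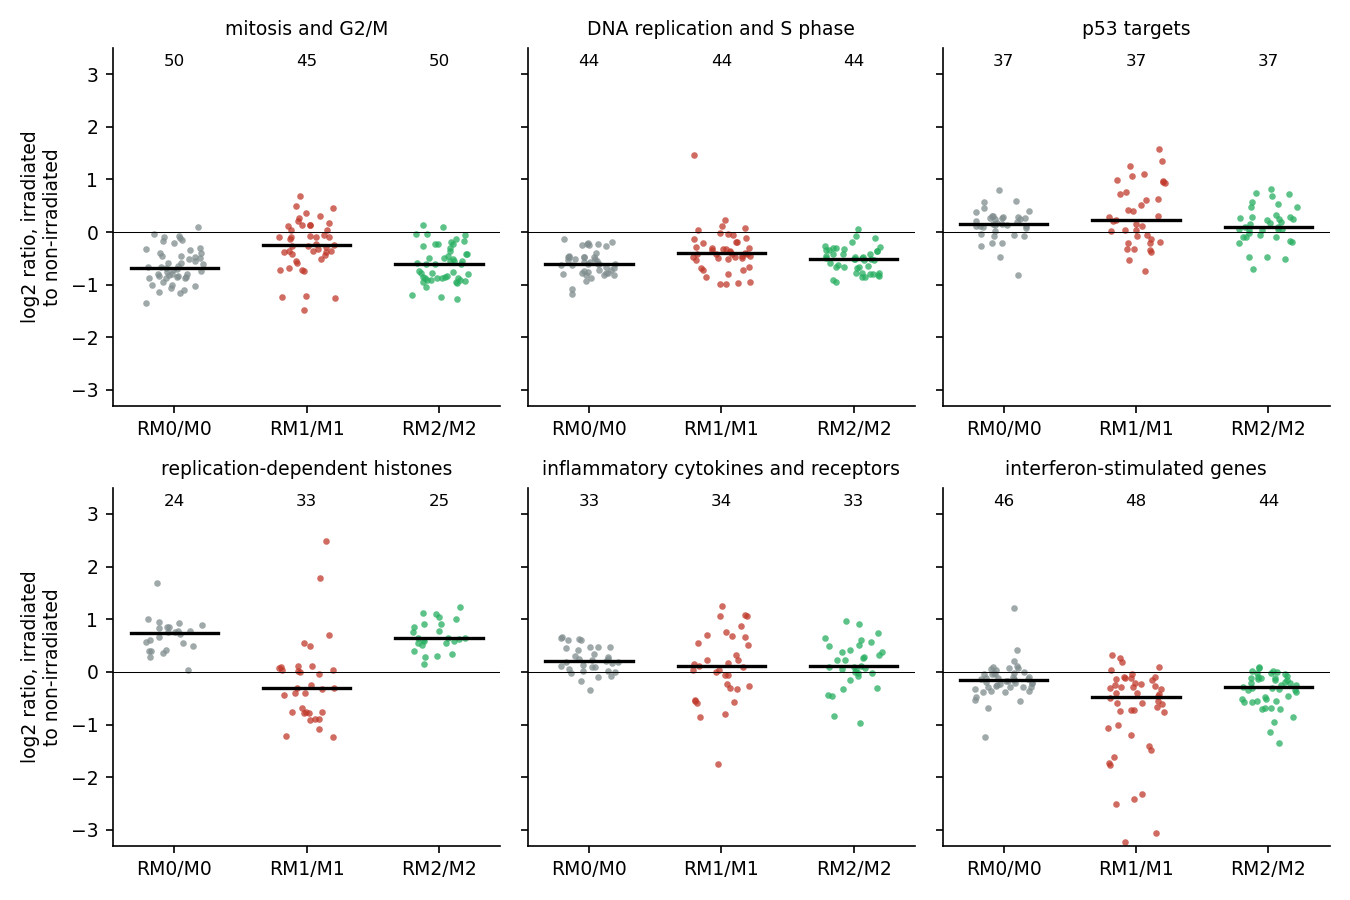
Log2 ratio of the irradiated to the non-irradiated library (vertical axis) for members of 6 gene lists in the unpolarized (RM0/M0), LPS and IFN-γ (RM1/M1) and IL-4 (RM2/M2) state. Points are genes with 10 or more counts in that pair, their number is printed at the top and the black bar is the median, which for histones is 0.74, -0.31 and 0.64 and for interferon-stimulated genes -0.16, -0.48 and -0.29.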

How the data were processed

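RNA of RAW264.7 macrophages was sequenced in 6 conditions with 1 library each. The authors deposited raw read counts per RefSeq gene from HTSeq, and the submitters' processing notes name Trimmomatic 0.36, HISAT2 2.2.1, HTSeq 0.11.3 and mm10. The strand setting is not given in the sources used here. Exons of several named genes, Cxcl10, Ddb2 and Rps27a among them, overlap protein-coding genes on the other strand. Tables were joined on symbol and gene ID. Symbols of 27 genes had been turned into dates, and mitochondrially encoded genes were not analysed here. A few items are not reported here. Scaling used TMM factors (edgeR 4.0.16, R 4.3.3) from 11574 genes with 10 or more counts in 3 or more libraries, 1.087 for M0 and 1.05 for RM0. Ratios, intervals and calls were computed in Python 3.11.15 with scipy 1.17.1 and tested on simulated data. With 1 library per condition no p-value was computed. DESeq2 1.42.0 gave alternative size factors.

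The members, gene lists and tests were chosen with earlier results of these data known. Named genes were the 12 largest and smallest ratios among well counted genes, 5 each among genes with 10 to 99 counts, the most abundant and the 3 most extreme members of each list, defining macrophage genes, the study's genes and leading members of gene ontology terms. Other genes named beside these were chosen after their values were seen, as were the genes that differ between M1 and M2.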

Additional observations from a re-analysis of the deposited data

Results flagged for a closer look

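Among the genes past 2-fold in RM0 against M0, 3 were past 2-fold the other way in another state with 100 or more counts in both pairs of libraries, and with 1 library per condition the difference was not tested. Gm15441, a noncoding RNA, stood at 1.15 in RM0 against M0 (91 and 202 counts), at -1.37 in RM1 against M1 (353 and 153) and at -1.05 in RM2 against M2 (223 and 104). Scd4 stood at 2.02 in RM0 (43 and 179 counts) and at -1.89 in RM2 (116 and 29). Mir682, whose counts are reads over a pseudogene copy, stood at 1.73 in RM0 (424 and 1395) and at -1.01 in RM2 (301 and 145). With fewer counts in the other state, Dsn1, a kinetochore protein, stood at -1.08 in RM0 (116 and 53) and at 1.24 in RM1 against M1 (10 and 29).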

How the results depend on the processing

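No paired analysis was possible because RM0 and M0 had 1 library each, and a fit over the 3 pairs of irradiated and non-irradiated libraries, which gives a mean over the states and not this comparison, was not run. With 2-fold calls limited to genes with 50 or more counts, 22 genes were higher and 33 lower, and with no filter on counts 196 and 238. At 4-fold 6 were higher and 3 lower. Among well counted genes, 15 were higher and 20 lower at 2-fold, and with a minimum of 500 counts 31 and 21 passed 1.5-fold. Under TMM over M0 and RM0 alone, DESeq2 size factors, library totals, a prior count of 0.25, removal of the GC trend and TMM factors from all genes (the last chosen after seeing the data), all 4 counts of calls stayed within 1.5 times the reported ones, from 76 to 103 genes 2-fold higher, 94 to 123 lower, 49 to 72 higher and 109 to 136 lower by the well counted call. Library totals moved the median of all genes to -0.05. The median of the mitosis list ranged from -0.73 to -0.66 over the alternatives, that of the S phase list from -0.65 to -0.57, of p53 targets from 0.11 to 0.17, of histones from 0.34 to 0.76 and of interferon-stimulated genes from -0.21 to -0.15. The list medians that moved by more than the typical counting error of 1 member were those of cytosolic ribosomal proteins, to -0.016 with library totals, and, with no filter on counts, of cornified envelope genes to 0 (most have 0 counts) and of myosin genes to 0.0056. No gene named by the rule that passed a call changed sign under these alternatives. GC content was known for 95.3% of measured genes, and the median ratio went from -0.06 in the fifth of lowest to 0.06 in the fifth of highest GC. Depth limits the ratios of genes under 100 counts, such as Gadd45g with 17 and 2.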

Other observations

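Outside the lists, several well counted genes of cell signaling were higher in RM0, with values only. Errfi1, a feedback inhibitor of EGFR, had 1451 and 2182 counts in M0 and RM0 (0.61, 0.51 to 0.70), Lrrk2, a kinase of lysosomes and myeloid cells, 3892 and 5875 (0.61), Gja1, connexin 43, 377 and 569 (0.61) and Notch1 470 and 702 (0.59). These 4 lose the 1.5-fold call with library totals. Cck, the precursor of cholecystokinin, had 114 and 222 (0.97), Akap12, a kinase anchor, 116 and 198 (0.78), and Ptafr, the receptor for platelet activating factor, 62 and 115 (0.89). Lower ones outside the lists were Sumo2, a ubiquitin-like modifier, with 1100 and 581 counts (-0.90), and Dek, a chromatin protein, with 1363 and 857 (-0.65). Gpr84, a receptor for medium-chain fatty acids, had 243 and 154 (-0.63), and Spn, which encodes CD43, 119 and 73 (-0.67). Sumo2 had 641 counts in M2 and 601 in RM2. The 7 higher genes were also above 0 in RM1 and RM2, from 0.06 for Ptafr to 2.29 for Akap12 in RM1 and from 0.31 for Notch1 to 0.97 for Cck in RM2. The 4 lower genes were above 0 in RM1, from 0.19 for Sumo2 to 1.36 for Spn, and below 0 in RM2, from -1.01 for Gpr84 to -0.06 for Sumo2.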
